A study of Mus musculus with 9 samples.

Results

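Gzma, Gzmb, Gzmk, Prf1, Nkg7 and Fasl encode proteins of the machinery with which cytotoxic lymphocytes kill target cells. These 6 genes were taken by name from the nCounter Mouse Immune Exhaustion panel, by matching the transcript of each probe to a gene symbol, and all 6 were present among the 785 probes of the panel, of which 751 had a symbol. The panel was run on bone marrow T-cells, prepared with a pan-T-cell kit, of 9 young adult, female, wild-type C57BL/6 mice at day 7. There were 3 mice in each of 3 groups, namely no leukemia, leukemia with vehicle and leukemia with rIL-12. Leukemia followed tail vein injection, without irradiation, of BCR-ABL1 Arf-/- B-ALL cells, a single transplanted line. Recombinant IL-12 (rIL-12) was given intraperitoneally each day, beginning 3 days after the cells were injected. The labels list the vehicle treated mice as untreated. The question asked of these genes was whether leukemia, or rIL-12 on top of leukemia, changed the RNA of the killing machinery, in itself and relative to Cd8a and the CD3 genes.

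Cytotoxic CD8 T-cells and NK cells store perforin and granzymes in granules and release them onto the surface of a bound cell. Perforin opens the membrane of that cell and granzymes, a family of serine proteases, enter through it and start cell death. Fas ligand acts without granules, by engaging the death receptor Fas on the other cell. IL-12 is known to promote the cytotoxic function of T-cells and NK cells.

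Each value was a number of counted barcodes for a single probe in a single mouse, and the total over all probes lay between 257613 and 711748 per mouse, lowest in vehicle mouse 3. A probe against a viral gene absent from mice gave 53 to 114 counts per mouse and was used to gauge background. This probe was not the floor of the panel, as 252 of the 785 probes had a mean at or below its own and the lowest count was 5. Counts were scaled between mice with TMM and tested with edgeR, and a gene was called at 1.5-fold or more with a p under 0.05 after Benjamini-Hochberg adjustment across the panel. The p-values measure the spread between the mice of this experiment. Both leukemia groups were set against the same 3 mice without leukemia, so these comparisons are not independent of each other.

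Prf1, the gene of perforin, was lower with rIL-12 than without leukemia and was the only member called in that comparison, a direction that turned when counts were scaled by the CD3 genes, Cd8a or Cd8b1, which fell more. Normalized counts of Prf1 were 214, 158 and 175 without leukemia, 159, 131 and 114 under vehicle and 92.7, 98.3 and 101 under rIL-12. All rIL-12 treated mice lay below all other mice, while vehicle mouse 1 lay just above no leukemia mouse 2. The group means were 182 ± 29.0 without leukemia, 135 ± 23.1 under vehicle and 97.5 ± 4.41 under rIL-12 (SD, n = 3 mice each). Prf1 fell in rIL-12 treated mice compared with mice without leukemia, at a log2 fold change of -0.90 (standard error 0.19, edgeR adjusted p = 0.00508), a 1.86-fold lower level. The call held whichever of the 9 mice was omitted, with a log2 fold change between -0.99 and -0.75, but the methods' t-test gave an adjusted p of 0.0981. The log2 fold change of Prf1 was -0.43 (standard error 0.18, adjusted p = 0.290) between vehicle treated mice and mice without leukemia, and -0.47 (standard error 0.19, adjusted p = 0.0972) between rIL-12 and vehicle treated mice, so neither step alone passed the threshold. Scaling by housekeeping genes or by the total count carried the step from vehicle to rIL-12 past it, with log2 fold changes of -0.86 and -0.65. Raw counts of Prf1 were above the viral probe in all 9 mice but close to it with rIL-12, with 107, 122 and 98 counts against 96, 105 and 87 counts of the viral probe. The part of background in these values was not tested.

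The bases upstream of Prf1 are shown because this gene carries the call against mice without leukemia. They are RefSeq sequence of GRCm38.p6, plus strand, chr10:61297586-61297750, up to the start of the annotated gene, which spans chr10:61297751-61304684. Capitals mark a match to the RUNX motif TGTGGT or its reverse complement.
Prf1: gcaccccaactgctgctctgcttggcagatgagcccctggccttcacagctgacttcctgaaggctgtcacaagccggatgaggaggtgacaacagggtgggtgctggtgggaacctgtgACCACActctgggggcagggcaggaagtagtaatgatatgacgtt

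Gzmb, which encodes granzyme B, a granzyme that cleaves caspases, was highest in vehicle treated mice and lower again with rIL-12. Normalized counts of Gzmb were 62.6, 58.7 and 44.5 without leukemia, 83.8, 137 and 91.9 under vehicle and 59.8, 55.6 and 59.0 under rIL-12. All vehicle treated mice lay above all other mice, and the rIL-12 treated mice fell within the range of the mice without leukemia. The means were 55.2 ± 9.55 without leukemia, 104 ± 28.5 under vehicle and 58.1 ± 2.22 under rIL-12 (SD, n = 3 each).

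Gzmb fell in rIL-12 treated compared with vehicle treated mice, at a log2 fold change of -0.84 (standard error 0.22, edgeR adjusted p = 0.0259). Between vehicle treated mice and mice without leukemia its log2 fold change was 0.91 (standard error 0.23), and the adjusted p of 0.0501 was just outside the threshold. The call between rIL-12 and vehicle was lost without no leukemia mouse 1 or 3, vehicle mouse 2 or 3, or rIL-12 mouse 1 or 2, with adjusted p between 0.0534 and 0.119, and also when the model held only these 2 groups (adjusted p = 0.0769). The difference between vehicle and no leukemia, in turn, was called when the model held only these 2 groups (adjusted p = 0.0299), by DESeq2 (adjusted p = 0.0184), without vehicle mouse 1 (adjusted p = 0.0215) and without rIL-12 mouse 3 (adjusted p = 0.0421). Compared with mice without leukemia, rIL-12 treated mice differed by 0.073 on the log2 scale (standard error 0.23, 95% interval -0.42 to 0.57). Raw counts of Gzmb were 46 to 148 and exceeded the viral probe in only 2 of the 9 mice. The part of background in them was not tested.

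The bases upstream of Gzmb, the other gene with a call, contain a match to the AP-1 motif TGANTCA and 2 matches to the RUNX motif, in capitals (RefSeq, GRCm38.p6, minus strand, chr14:56262335-56262584, directly before the gene at chr14:56258836-56262334).
Gzmb: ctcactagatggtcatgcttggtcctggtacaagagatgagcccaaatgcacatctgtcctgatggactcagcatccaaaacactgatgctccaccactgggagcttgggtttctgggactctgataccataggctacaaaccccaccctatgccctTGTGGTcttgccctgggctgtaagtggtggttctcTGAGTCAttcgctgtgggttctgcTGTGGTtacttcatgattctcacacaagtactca

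The other granzymes were low in the bone marrow isolates. Gzma encodes granzyme A, a tryptase-like granzyme, and had 31.8, 31.4 and 31.9 normalized counts without leukemia, 31.3, 83.1 and 46.8 under vehicle and 35.5, 60.4 and 70.4 under rIL-12. The mice without leukemia were nearly alike, and the leukemia groups spread upward from that level, with vehicle mouse 1 just under it at 31.3. The log2 fold change of Gzma compared with mice without leukemia was 0.76 (standard error 0.35, adjusted p = 0.317) with vehicle, and with rIL-12 it was 0.78 (standard error 0.34, adjusted p = 0.130), where the groups did not overlap. No mouse had more counts of Gzma than of the viral probe, and the raw counts were 28 to 90.

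Gzmk, the gene of granzyme K, had 66.9, 90.0 and 99.6 normalized counts without leukemia, 83.8, 126 and 100.3 under vehicle and 90.1, 167 and 113 under rIL-12. The 3 groups overlapped, and 6 of 9 mice exceeded the viral probe. The log2 fold change was 0.27 (95% interval -0.28 to 0.83) with vehicle and 0.52 (95% interval -0.020 to 1.07) with rIL-12 compared with mice without leukemia, and 0.25 (95% interval -0.29 to 0.79) between rIL-12 and vehicle treated mice, none past the threshold.

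Nkg7, a membrane protein of cytotoxic granules that takes part in their release, was the member read furthest from background. Its normalized counts were 1949, 1720 and 1902 without leukemia, 1841, 2385 and 1557 under vehicle and 1780, 2253 and 3081 under rIL-12. The raw counts were 14.1 to 34.6 times those of the viral probe in the same mouse, and the 3 groups overlapped. The means were 1857 ± 121, 1928 ± 421 and 2371 ± 659 (SD, n = 3 each). With vehicle, the log2 fold change of Nkg7 compared with mice without leukemia was 0.055 (95% interval -0.40 to 0.51, adjusted p = 0.952), and with rIL-12 it was 0.35 (95% interval -0.10 to 0.81, adjusted p = 0.290). Between rIL-12 and vehicle treated mice the log2 fold change was 0.30 (95% interval -0.16 to 0.75), and it turned to -0.074 when counts were scaled by housekeeping genes.

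The bases upstream of Nkg7 are shown because this gene was read furthest above the viral probe. The capitals are, in order, matches to the STAT motif TTCNNNGAA, the RUNX motif and the T-box motif AGGTGTGA (RefSeq, GRCm38.p6, plus strand, chr7:43436888-43437137, directly before the gene at chr7:43437138-43438246).
Nkg7: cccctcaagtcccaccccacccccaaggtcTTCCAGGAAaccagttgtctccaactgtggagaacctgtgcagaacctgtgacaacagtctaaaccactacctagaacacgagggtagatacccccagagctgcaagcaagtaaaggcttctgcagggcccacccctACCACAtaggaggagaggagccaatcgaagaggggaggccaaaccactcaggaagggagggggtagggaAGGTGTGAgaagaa

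The 4 motifs, those of transcription factors active in lymphocytes, were chosen after the sequences were seen and were searched on both strands in the 250 bases before the RefSeq start of each gene, which for Prf1 includes 85 bases inside the annotated gene that are not printed. The RUNX motif was present before 4 of the 6 members and before 14.0% of the 32851 RefSeq promoters. The T-box motif was found before 1 member, Nkg7 (1.12% of promoters), the STAT motif before 1 member, Nkg7 (7.02%), and the AP-1 motif before 1 member, Gzmb (6.75%). A match describes letters only and does not show binding.

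Fasl, which encodes Fas ligand, had low counts in every mouse. Its normalized counts were 41.4, 45.5 and 43.5 without leukemia, 27.3, 52.6 and 75.2 under vehicle and 39.8, 51.6 and 64.1 under rIL-12. Raw counts were 27 to 64, below the viral probe in all 9 mice, and vehicle mouse 3, with the highest normalized value, had 45 raw counts at the lowest depth. The log2 fold change was 0.20 (standard error 0.31) with vehicle and 0.24 (standard error 0.30) with rIL-12 compared with mice without leukemia, and 0.042 (standard error 0.30) between the leukemia groups. Whether Fasl changed could not be read at this level.

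**Figure D1:**
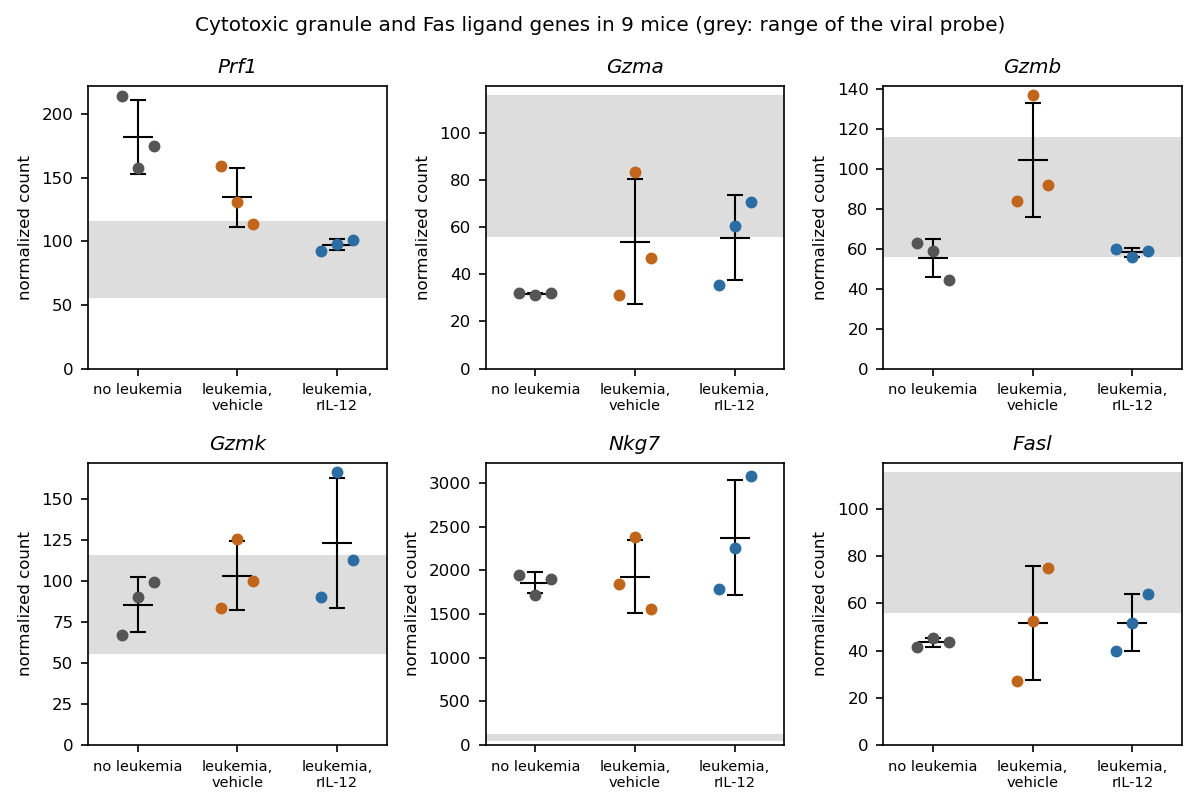
Normalized count (y axis, from 0, scale differs by panel) of each of the 6 genes in each of the 9 mice (points, replicates 1 to 3 from left to right), with the mean and SD of each group in black and the range of the viral probe in grey. Prf1 steps down from a mean of 182 to 135 and 97.5, Gzmb peaks at 104 in vehicle treated mice, Nkg7 stays far above the grey band, and Gzma and Fasl lie mostly below or inside it.

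Set against all probes, the members did not stand out in number. In vehicle treated mice compared with mice without leukemia, edgeR called 0 of 6 members, where 2.68% of all probes were called, although 3 members had an unadjusted p under 0.05 and DESeq2 called 1, Gzmb. In rIL-12 treated mice compared with mice without leukemia, 1 of 6 members was called, Prf1, where 17.6% of all probes were called and 8.66% were called lower. In rIL-12 treated compared with vehicle treated mice, 1 of 6 was called, Gzmb, where 13.8% of all probes were called and 5.22% were called lower. With housekeeping scaling, 0, 1 and 2 members were called where 0.382%, 15.0% and 29.2% of all probes were. This scaling moved the median over all probes, on the log2 scale, to -0.27 and -0.49 in the last 2 comparisons, from 0.024 and -0.084 with TMM, and 12.2% and 26.2% of probes were called lower. With TMM, 10 of the 11 housekeeping genes themselves lay above 0 in each of these 2 comparisons. Their median log2 fold changes were 0.34 and 0.40, and 2 and 4 of them were called higher. Which of the 2 scales is nearer to the RNA of the cells was not tested. Normalized counts did not overlap between groups for 1 member with vehicle (Gzmb, higher), 2 with rIL-12 (Gzma, higher, and Prf1, lower) and 2 between rIL-12 and vehicle (Prf1 and Gzmb, lower), where 22.5%, 35.5% and 30.7% of all probes did not overlap. The median log2 fold change over the 6 members was 0.24 with vehicle and 0.30 with rIL-12 compared with mice without leukemia, and 0.030 between rIL-12 and vehicle.

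**Figure D2:**
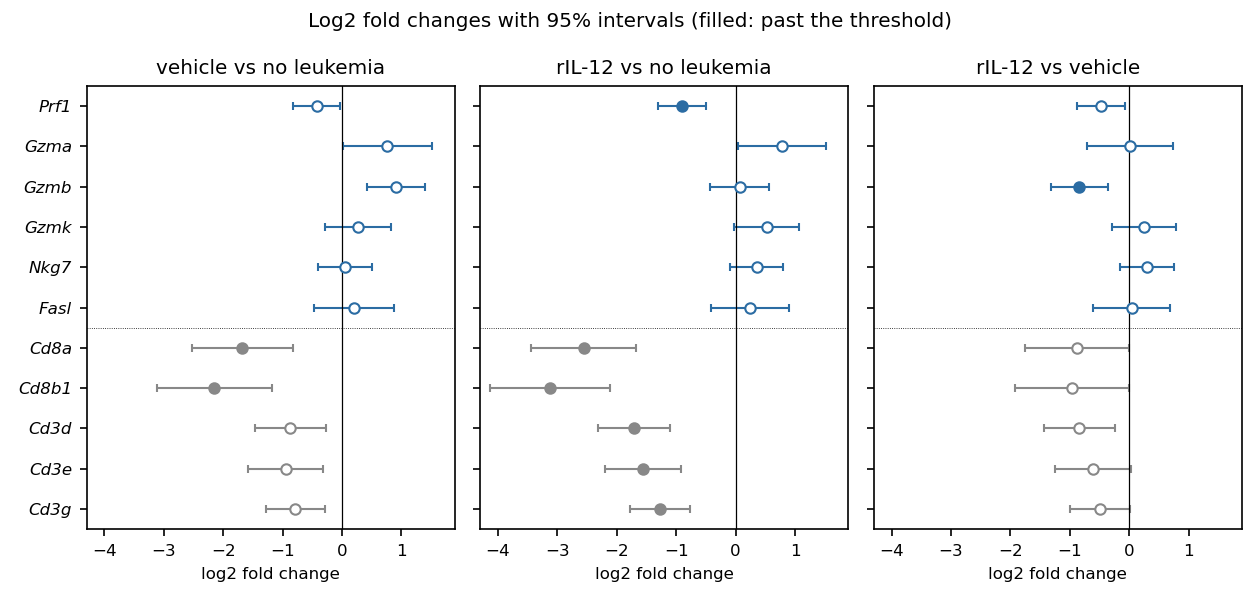
Log2 fold change (x axis) with its 95% interval for the 6 genes (blue) and for the CD8 and CD3 genes (grey) in the 3 comparisons, with filled points for genes past the threshold. The members scatter around 0, with Prf1 at -0.90 and Gzmb at -0.84 filled, while all 5 grey genes lie below 0 in each comparison.

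Compared with mice without leukemia, Cd8a was called lower in both leukemia groups. The CD3 genes were called lower with rIL-12, and with vehicle they were lower without an edgeR call. Cd8a, the alpha chain of the CD8 coreceptor of cytotoxic T-cells, had normalized counts of 590, 346 and 480 without leukemia, 266, 99.7 and 68.5 under vehicle and 64.1, 70.1 and 106 under rIL-12. Its log2 fold change compared with mice without leukemia was -1.68 (standard error 0.39, adjusted p = 0.0399) with vehicle and -2.55 (standard error 0.41, adjusted p = 0.000953) with rIL-12. Raw counts of Cd8a exceeded the viral probe in only 5 of the 9 mice, the 3 without leukemia, vehicle mouse 1 and rIL-12 mouse 3. The CD3 genes, which encode chains of the T-cell receptor complex, had log2 fold changes with rIL-12 of -1.71 for Cd3d, -1.56 for Cd3e and -1.28 for Cd3g. With vehicle these were -0.87, -0.95 and -0.79 (edgeR adjusted p = 0.121, 0.112 and 0.108), each without overlap, and DESeq2 called all 3. In these bulk samples, fewer T-cells in the isolate and less RNA per T-cell cannot be told apart. Of 8 measured T-cell markers, all 8 were called lower with rIL-12 than in mice without leukemia, though with a mouse left out the call was kept in only 2 of 9 fits for Cd28, 3 of 9 for Zap70 and 6 of 9 for Cd5, and those of Cd28 and Zap70 were also lost with the replicate block and with only the 2 groups. Their summed normalized counts were 4916 to 8036 without leukemia, 3384 to 4781 under vehicle and 1686 to 3346 under rIL-12. Of 5 measured CD4 T-cell markers, only 1, Foxp3, was called lower with rIL-12, where 2 lay above 0. With vehicle 0 were called and 4 lay above 0. The log2 fold change of Cd4 compared with mice without leukemia was 0.83 (edgeR adjusted p = 0.223) with vehicle and -0.015 with rIL-12. A change in the mix of T-cells was not tested.

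The mean ratio of each member to Cd8a was higher in both leukemia groups than without leukemia, as for most probes of the panel. The log2 ratio of Prf1 to Cd8a was -1.46, -1.13 and -1.45 without leukemia, -0.74, 0.39 and 0.72 under vehicle and 0.53, 0.48 and -0.057 under rIL-12. For Nkg7 it was 1.72, 2.31 and 1.98, then 2.78, 4.57 and 4.47, then 4.78, 4.99 and 4.85. Vehicle mouse 1, which had the highest Cd8a count of the leukemia groups, was the lowest mouse of those groups for each.

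In rIL-12 treated mice compared with mice without leukemia, the differences in log2 ratio to Cd8a were 3.28 for Gzma, 2.63 for Gzmb, 3.04 for Gzmk, 1.66 for Prf1, 2.87 for Nkg7 and 2.77 for Fasl, and the groups did not overlap for any of the 6. Cd8a was below the viral probe in 4 of the 6 leukemia mice, and Gzma and Fasl were below it in all 9 mice. The differences of these genes therefore rest on counts under that probe, and their size is not a measure of expression. The groups did not overlap in this direction for 98.7% of all probes either, with a median difference of 2.59. With vehicle the differences were 2.54, 2.79, 2.17, 1.47, 1.94 and 2.04 in the same order, without overlap for all but Fasl, where 88.5% of all probes were so and the median was 1.95. When edgeR itself was scaled by Cd8a, 6, 6 and 0 members were called in the 3 comparisons, beside 97.1%, 96.2% and 1.4% of all probes, by Cd8b1 6, 6 and 0 beside 98.9%, 97.6% and 0.637%, and by the CD3 genes 2, 5 and 0 beside 19.9%, 90.7% and 24.1%. In the ratios to Cd8a, Prf1 lay below the median of all probes in both comparisons. The exact two-sided permutation test gave p = 0.1 for each pair of groups without overlap, the smallest that 3 mice against 3 allow, and 0.15 after adjustment over the 36 ratios tested.

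The log2 ratio of Prf1 to the CD3 genes was -2.57, -2.16 and -2.60 without leukemia, -1.99, -2.09 and -2.005 under vehicle and -1.39, -1.86 and -2.19 under rIL-12. Compared with mice without leukemia the difference was 0.42 with vehicle, higher without overlap (exact permutation p = 0.1), against a median of 0.90 over all probes. With rIL-12 it was 0.63, with overlap (exact permutation p = 0.2), against a median of 1.56 over all probes.

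For Nkg7 the log2 ratio to the CD3 genes was 0.60, 1.28 and 0.84 without leukemia, 1.53, 2.08 and 1.75 under vehicle and 2.87, 2.65 and 2.73 under rIL-12, with no overlap between any groups. The difference was 0.88 with vehicle and 1.84 with rIL-12 compared with mice without leukemia, where 65.9% and 91.0% of all probes were higher without overlap and the medians were 0.90 and 1.56. Between rIL-12 and vehicle treated mice it was 0.96 (exact permutation p = 0.1, 0.15 adjusted over the 36 ratios), against a median of 0.58 and 36.1% of probes higher without overlap. Gzmk relative to the CD3 genes also separated all 3 groups, with mean log2 ratios of -3.54, -2.41 and -1.52, and the other 4 members overlapped between rIL-12 and vehicle. With rIL-12 compared with no leukemia, the differences relative to the CD3 genes were 2.25 for Gzma, 1.61 for Gzmb, 2.02 for Gzmk and 1.74 for Fasl, so that of Nkg7 was not the largest. Relative to Cd8a, Nkg7 was the only member higher without overlap between rIL-12 and vehicle, by 0.93, where 4.71% of probes were so and the median was 0.56. The raw counts of Cd8a behind this ratio lay between 41 and 264.

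**Figure D3:**
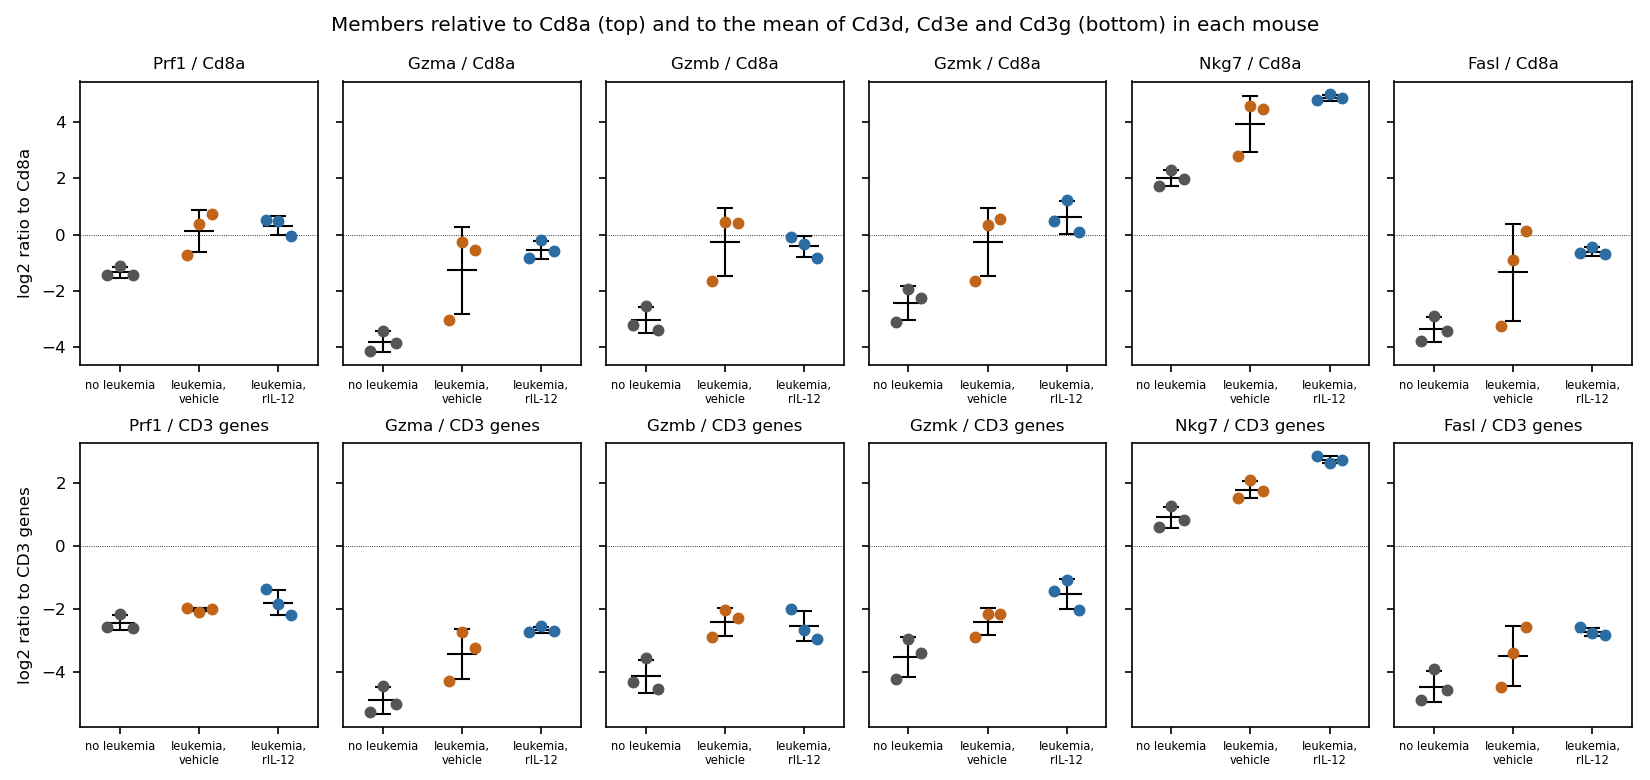
Log2 ratio of each of the 6 genes to Cd8a (top row) and to the mean of Cd3d, Cd3e and Cd3g (bottom row) in each of the 9 mice (points), with the mean and SD of each group in black. Nkg7 and Gzmk relative to the CD3 genes separate all 3 groups, with means of 0.91, 1.79 and 2.75 for Nkg7 and -3.54, -2.41 and -1.52 for Gzmk, while Prf1 lies between -2.60 and -1.39, with the rIL-12 treated mice overlapping both other groups.

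Ratios between members within a mouse do not depend on the scaling between mice, and were added after the values were seen. The number of Prf1 counts per Nkg7 count, on the log2 scale, was -3.18, -3.44 and -3.44 without leukemia, -3.52, -4.18 and -3.76 under vehicle and -4.25, -4.51 and -4.91 under rIL-12. No 2 groups overlapped, and the mean fell by 0.47 from no leukemia to vehicle and by 0.74 from vehicle to rIL-12, a 2.31-fold lower ratio in all. The log2 ratio of Gzmb to Nkg7 was higher in vehicle treated mice than in mice without leukemia by 0.85 and lower in rIL-12 treated than in vehicle treated mice by 1.09, both without overlap. The log2 ratio of Gzmb to Prf1 was higher in both leukemia groups than in mice without leukemia, by 1.32 and 0.97. With rIL-12 the raw counts of Prf1 were only 1.11 to 1.16 times those of the viral probe. Gzmb exceeded that probe in only 2 of the 9 mice. The part of background in these ratios, and so in their size, was not tested. Of the 15 pairs of members, the groups did not overlap for 3 with vehicle, 7 with rIL-12 and 4 between rIL-12 and vehicle, where 24.4%, 37.7% and 29.4% of all pairs of probes did not. The exact permutation p was 0.1 for each of these, and 0.321 after adjustment over 45 tests.

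**Figure D4:**
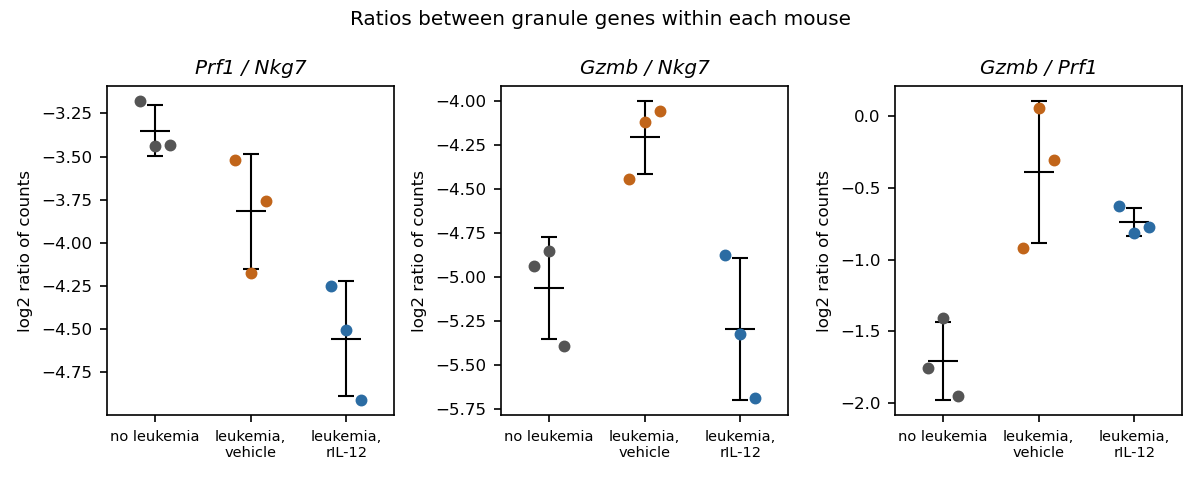
Log2 ratio of raw counts (y axis, not from 0) of Prf1 to Nkg7, Gzmb to Nkg7 and Gzmb to Prf1 within each mouse (points), with the mean and SD of each group in black. Prf1 relative to Nkg7 drops from a mean of -3.35 to -3.82 and -4.56 without overlap, and Gzmb relative to Nkg7 peaks at -4.21 in vehicle treated mice.

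Of 9 measured genes of granule content and release other than the members, 0 were called with vehicle by edgeR (1 at an unadjusted p under 0.05, 1 by DESeq2). With rIL-12 compared with mice without leukemia, 1 was lower, Ctsw, which encodes cathepsin W, a protease of cytotoxic lymphocytes. Ctsw had 703, 496 and 711 normalized counts without leukemia, 443, 359 and 269 under vehicle and 131, 163 and 282 under rIL-12, a log2 fold change of -1.73 with rIL-12 (standard error 0.28, adjusted p = 0.000997) that was called with each mouse left out. Lamp1, a lysosome and granule membrane protein, was higher with rIL-12 than with vehicle, by 0.70 (adjusted p = 0.0384), but not with housekeeping scaling, where the log2 fold change was 0.27, nor without mouse 1 or 2 of the no leukemia group, vehicle mouse 2 or 3, or rIL-12 mouse 1 or 2. In the same comparison Ctsw was lower by 0.90 (adjusted p = 0.0459) with overlap, a call kept in 1 of the 9 fits that each left out a mouse and lost with the replicate number as a block.

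Of 7 measured death ligands, receptors and effector cytokines, 2 rose with rIL-12 compared with mice without leukemia. Ifng, the gene of interferon gamma, had 93.4, 138 and 127 normalized counts in the mice without leukemia, 132, 175 and 159 under vehicle and 149, 488 and 304 under rIL-12, a log2 fold change of 1.39 (standard error 0.33, adjusted p = 0.0113), lost without no leukemia mouse 1 or rIL-12 mouse 2. Tnfsf10, which encodes the death ligand TRAIL, rose by 1.01 (standard error 0.26, adjusted p = 0.0171), lost without any 1 no leukemia mouse or rIL-12 mouse 2. Both calls were lost with housekeeping scaling, at log2 fold changes of 1.09 and 0.73. Fas, the receptor of Fas ligand, had 50 to 122 raw counts and a log2 fold change of -0.63 with rIL-12 (adjusted p = 0.0759). None of the 7 was called with vehicle by edgeR (0 at an unadjusted p under 0.05, 0 by DESeq2).

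Downstream of the granules and death receptors, 12 genes were measured, and 1 rose and 1 fell with rIL-12 compared with mice without leukemia. Bak1, which permeabilizes mitochondria in cell death, rose by 0.96 on the log2 scale (standard error 0.15, adjusted p = 0.000953) and Bcl2, which counteracts it, fell by 1.80 (standard error 0.26, adjusted p = 0.000681), both with each mouse left out. With vehicle Bcl2 was also lower, at -0.90 without overlap, though not called (adjusted p = 0.0913). None of the 12 was called with vehicle by edgeR (1 at an unadjusted p under 0.05, 1 by DESeq2). Bid, another of the 12, was higher in rIL-12 treated than in vehicle treated mice by 0.80 (edgeR adjusted p = 0.0207). The call of Bid was lost with housekeeping scaling and without vehicle mouse 2 or 3 or rIL-12 mouse 1 or 2. In the same comparison Bak1 rose by 0.98 (adjusted p = 0.0137), lost without vehicle mouse 2 or rIL-12 mouse 2 and with housekeeping scaling, at 0.58, and Bcl2 fell by 0.89 (adjusted p = 0.0377), a call kept in 2 of the 9 fits that each left out a mouse. These are RNA levels of the isolated cells and not of their targets.

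Among 9 measured transcription factors of the cytotoxic fate and genes of IL-12 signaling, 0 were called with vehicle by edgeR (4 at an unadjusted p under 0.05, 2 by DESeq2). Eomes fell with rIL-12 compared with mice without leukemia, by 1.12 on the log2 scale (standard error 0.24, adjusted p = 0.00629), lost without no leukemia mouse 3. With vehicle Eomes was also lower, at a log2 fold change of -0.87 without overlap, though not called (adjusted p = 0.0913). Between rIL-12 and vehicle the log2 fold change of Eomes was -0.24 (adjusted p = 0.526). Its raw counts were 24 to 128. Tbx21, the gene of T-bet, had means of 71.2 ± 13.0, 108 ± 38.6 and 63.1 ± 20.5 normalized counts (SD, n = 3 each) and raw counts of 51 to 165. The vehicle mean was raised by mouse 2, with 82.8, 152 and 88.6 normalized counts, overlapping 65.8, 61.7 and 86.0 without leukemia. The log2 fold change of Tbx21 was 0.61 (adjusted p = 0.336) with vehicle compared with no leukemia and -0.79 (adjusted p = 0.0722) between rIL-12 and vehicle. Jak2, the kinase of the IL-12 receptor, was higher with rIL-12 than in mice without leukemia by 0.73 on the log2 scale (adjusted p = 0.0213), not with housekeeping scaling, at 0.41, and not without no leukemia mouse 1 or 2 or rIL-12 mouse 2. Between rIL-12 and vehicle, Jak2 was higher by 0.97, lost with housekeeping scaling, at 0.55, and without vehicle mouse 2 or 3 or rIL-12 mouse 2. In the same comparison Tyk2, the other kinase of that receptor, fell by 0.75 on the log2 scale (adjusted p = 0.0411), a call kept in only 2 of the 9 fits that each left out a mouse.

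NK cells carry the same granule genes, so their other markers were examined beside the members. Of 8 measured NK cell markers that are not members, 0 were called with vehicle by edgeR (1 at an unadjusted p under 0.05, 1 by DESeq2), and with rIL-12 1 rose and 1 fell compared with mice without leukemia. Klrd1, the gene of CD94, fell by 1.83 on the log2 scale with each mouse left out (standard error 0.31). Of the 8 markers, 7 had a log2 fold change above 0 in that comparison, with a median over the 8 of 0.15. With vehicle Klrd1 was also lower than without leukemia, at -1.03 without overlap, though not called (adjusted p = 0.110). Klrk1, the gene of NKG2D, which CD8 T-cells also carry, rose by 1.43 (standard error 0.31), lost without no leukemia mouse 1. Ncr1, which defines NK cells, had 22 to 46 raw counts and was below the viral probe in all 9 mice. The summed normalized counts of the 8 markers were 7812 to 8883 without leukemia, 7755 to 11026 under vehicle and 8345 to 11382 under rIL-12, most of it Tyrobp, which myeloid cells express as well. The summed counts of 10 myeloid markers were 5971 to 6901, 6997 to 8596 and 7198 to 9671, and those of 4 mast cell and basophil markers were 1065 to 1169, 1889 to 2214 and 1965 to 2198. What part these cells have in the member counts was not tested.

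The probes whose profiles over the 9 mice were nearest to each member were found by the root mean square difference of centered log2 normalized counts. For Prf1 they were Ptpn22 at 0.13 and Ptprc at 0.15, where Prf1 itself varied by 0.40 around its mean and the median probe lay at 0.51. Ptprc encodes CD45, the common leukocyte antigen. For Nkg7 they were H2-D1 at 0.17 and Slc7a5 at 0.19, and for Gzmb Alox5 and Nfkb2, both at 0.21. For Gzma they were Cd274, which encodes PD-L1, at 0.18 and Oas2 at 0.20, and for Gzmk Oas3 at 0.20 and Oas1a at 0.21. For Fasl they were Cxcl3 and Fgf10, both at 0.18, with raw counts of 14 to 29 and 25 to 46, under the viral probe in each mouse as was Fasl.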

How the data were processed

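Bone marrow T-cells of 9 mice were profiled on an nCounter panel for immune exhaustion. The deposited values are whole-number counts for 785 probes, with totals that differ between mice, so the nSolver normalization in the methods of the authors was not in them. Probes were named through RefSeq transcripts of GRCm38.p6 (751 matched, 34 not). Groups came from the sample labels. The members and gene lists were chosen with earlier results of these data known.

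Counts were scaled with TMM and tested by quasi-likelihood in edgeR 4.0.16 (R 4.3.3), fitting all 9 mice in 3 groups, no block and a prior count of 1. A call needed 1.5-fold or more and a p under 0.05 after Benjamini-Hochberg adjustment across the panel. The test was checked on simulated data. Ratios to Cd8a and to the CD3 genes used log2(count + 1) and exact two-sided permutation tests (scipy 1.17.1). Named genes were the members, the CD8 and CD3 genes, called genes of the related lists with Fas, Ifng, Tbx21 and Eomes, and the 2 nearest profiles per member. NK cell and T-cell markers were named outside this rule, after their values were seen. Alternatives used other scalings, filters, models, DESeq2 1.42.0, the methods' t-test in R and each mouse left out. Counts cover 3 mice a group, and intervals rest on the spread between them.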

Additional observations from a re-analysis of the deposited data

How the results depend on the processing

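Scaling decided most of what changed. With the CD3 genes as the scale, 2 members were called with vehicle and 5 with rIL-12 compared with mice without leukemia, and 0 between rIL-12 and vehicle. Of all probes, 19.9%, 90.7% and 24.1% were called with this scale. With Cd8a or Cd8b1 as the scale, both chosen after seeing the data, the members called were 6, 6 and 0. Of all probes, 97.1%, 96.2% and 1.4% were called with Cd8a. Prf1 changed direction in each of these, to log2 fold changes of 0.40, 0.65 and 0.25 with the CD3 genes, 1.57, 1.68 and 0.11 with Cd8a, and 2.05, 2.21 and 0.15 with Cd8b1, because the scale itself fell more than Prf1. With housekeeping or total count scaling, 2 members were called between rIL-12 and vehicle, where 29.2% of all probes were with housekeeping genes. In rIL-12 treated mice compared with mice without leukemia, Gzmb turned to -0.22 and -0.10 under these scalings and Fasl to -0.036 with housekeeping genes. Between rIL-12 and vehicle, Gzma turned to -0.37 and -0.15, Fasl to -0.36 and -0.16, Gzmk to -0.16 with housekeeping genes and Nkg7 to -0.074 with housekeeping genes. No value that turned under housekeeping or total count scaling was called.

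With a model of only the 2 groups compared, 1 member was called with vehicle and 0 between rIL-12 and vehicle. DESeq2 called 1 with vehicle. A 2-fold threshold left 0 members in both comparisons of rIL-12, and so did the methods' t-test. A filter on probes above the viral probe, which kept 3 members, left 0 between rIL-12 and vehicle. Over all probes, the 21 calls with vehicle became 3 with housekeeping genes, 63 with only the 2 groups, 52 with DESeq2 and 156 with the CD3 genes, the 138 with rIL-12 became 72 at 2-fold, and the 108 between rIL-12 and vehicle became 229, 27, 49 and 189 with housekeeping genes, only the 2 groups, the 2-fold threshold and the CD3 genes. The methods' t-test called 0 in each comparison.

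With each mouse left out in turn, the number of members called was 0 to 1 with vehicle, 1 to 1 with rIL-12 and 0 to 1 between rIL-12 and vehicle. Directions changed for values near 0, over ranges of -0.11 to 0.52 for Fasl and -0.11 to 0.19 for Nkg7 with vehicle, -0.017 to 0.19 for Gzmb with rIL-12, and -0.28 to 0.49 for Gzma, -0.031 to 0.44 for Gzmk and -0.27 to 0.35 for Fasl between rIL-12 and vehicle. Relative to Cd8a, between rIL-12 and vehicle, they were -0.14 to 1.25 for Gzma, -0.85 to 0.20 for Gzmb, -0.24 to 0.49 for Prf1 and -0.22 to 1.47 for Fasl, and relative to the CD3 genes -0.40 to 0.075 for Gzmb. Cd247 has no matched probe, so the alternative with it as the reference was not run.

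The labels give the groups the same replicate numbers. With the replicate number as a block, 0, 1 and 1 members were called, as without it, and no member's call changed. Deviations of mice with the same number correlated between -0.19 and 0.33, and those of mice with different numbers between -0.40 and 0.23. With so few mice a group, these correlations cannot decide whether mice with the same number shared more than the number.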
